A study of Mus musculus with 6 samples.

Results

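The mitochondrial carriers of the SLC25 family were examined in cardiomyocytes (CMs) that had lost *Cpt1b*. The family was taken as every protein-coding gene of the deposited table whose symbol is *Slc25a* followed by a number, with the carnitine–acylcarnitine carrier *Slc25a20* set aside, which gave 39 of the 16448 genes listed. RNA-seq of isolated adult CMs had been performed in 3 CtrlCre and 3 Cpt1bcKO samples from C57BL/6 mice aged 8 to 12 weeks. Both genotypes carry the aMHC-Cre transgene, in which a CM-specific myosin heavy chain promoter drives the recombinase. Cpt1bcKO mice are in addition homozygous for a floxed *Cpt1b* allele, whereas CtrlCre mice have wild-type *Cpt1b*, so a Cre effect common to both genotypes does not appear as a difference. Recombination starts before birth, and the samples therefore show the adult state long after the loss of the gene. The labels only number the samples, whereas the paper speaks of separate mice in each genotype.

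Most SLC25 proteins span the inner mitochondrial membrane and exchange metabolites between the cytosol and the matrix, usually one molecule against another. In the heart they move ADP and ATP, phosphate, the intermediates of the Krebs cycle, amino acids, cofactors and iron, and so connect the respiratory chain with the rest of the cell. CPT1B works one step earlier on the fatty acid route, at the outer membrane, where it makes the acylcarnitines that the carrier encoded by *Slc25a20* then imports. The comparison asks whether RNA levels of the remaining carriers differ once this route is blocked in CMs.

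The values are normalized counts, that is, reads per gene divided by a factor for each sample. They summed to 13393411 to 31722217 per sample. Of this, 61.8% to 80.8% fell on *mt-Rnr2*, the large mitochondrial rRNA, with the highest share in Cpt1bcKO sample 3, and the range was 3146414 to 3551692 once rRNA and genes of the mitochondrial genome were taken out. *Cpt1b* had 1861, 893 and 1443 normalized counts in CtrlCre and 211, 353 and 285 in Cpt1bcKO samples (adjusted *P* = 0.00338 in limma). *Xist*, which is transcribed from the inactive X chromosome of females, had 957 and 1080 normalized counts in sample 1 of CtrlCre and of Cpt1bcKO and 23 to 78 in the other samples. The 8 CM markers summed to 504993 to 613757 normalized counts in CtrlCre and to 317925 to 552437 in Cpt1bcKO samples. All 8 had a log2 fold change below 0 (median −0.44), 4 did not overlap between the genotypes, and 2 (*Tnni3* and *Pln*) were lower at an unadjusted but 0 at an adjusted *P* value below 0.05 in limma. Among all genes tested, 9.60% did not overlap and were lower, and 7.22% were lower and 6.66% higher at an unadjusted *P* value below 0.05. An adjusted *P* value below 0.05 in limma was reached by 1.57% of them. The 6 fibroblast markers summed to 468 to 706 in CtrlCre and 995 to 1188 in Cpt1bcKO samples, all 6 were higher in Cpt1bcKO at an unadjusted *P* value below 0.05 and 2 (*Col1a1* and *Lum*) an adjusted one in limma. The 5 endothelial markers summed to 1031 to 2165 in CtrlCre and 1843 to 2222 in Cpt1bcKO samples. Their median log2 fold change was 0.35, with 0 of 5 below 0. Of these, 1 (*Tie1*) was higher at an unadjusted *P* value below 0.05 in limma. The 5 smooth muscle and pericyte markers summed to 526 to 1784 and 989 to 1439, and the 5 leukocyte markers to 75 to 104 and 94 to 102. No marker listed in the table was at 0 in all samples, but 0 of 4 adipocyte and 2 of 5 erythroid markers were among its rows, the latter with sums of 1 to 20. The part of CM and fibroblast RNA content in the differences given here was not tested. In these bulk samples, fewer cells of a type and less RNA per cell cannot be told apart.

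A single carrier dominated the family in both genotypes. To compare genes with each other, the normalized counts were divided by the exon length of each gene in kilobases (kb). On this scale *Slc25a4*, the heart and muscle isoform of the ADP/ATP carrier, had 7114 to 8271 normalized counts per kb in CtrlCre and 6786 to 7847 in Cpt1bcKO samples, which was 72.5% and 71.5% of the family's total. *Slc25a3*, the phosphate carrier, was next with 692 to 887 per kb in CtrlCre samples. *Slc25a11*, which exchanges 2-oxoglutarate (α-ketoglutarate) for malate, followed with 517 to 687 per kb. *Slc25a5*, the more widely expressed isoform of the ADP/ATP carrier, had 407 to 505 per kb. In CtrlCre CMs these 4 carriers had ranges that did not overlap each other, whereas in Cpt1bcKO CMs the ranges of *Slc25a3* (573 to 761), *Slc25a11* (488 to 642) and *Slc25a5* (457 to 642) overlapped.

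Behind these came *Slc25a34*, *Slc25a13*, *Slc25a46* and *Slc25a12*, with CtrlCre means of 163, 161, 134 and 112 normalized counts per kb. Neighbours among the first 3 of them had overlapping ranges, and *Slc25a12* (102 to 117 per kb) lay below all CtrlCre values of *Slc25a46*. The next, *Slc25a51*, had 51.0 to 72.2 normalized counts per kb, and every lower ranked carrier had at most 59.4 per kb in any CtrlCre sample. The lowest mean was that of *Slc25a31*, the testis isoform of the ADP/ATP carrier, with 0.783 per kb. Reads that aligned to several places had been discarded, which can lower the values of carriers with near-identical copies, such as the ADP/ATP carriers, so the order of these genes is less certain than the comparison of 1 gene between samples.

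**Figure D1:**
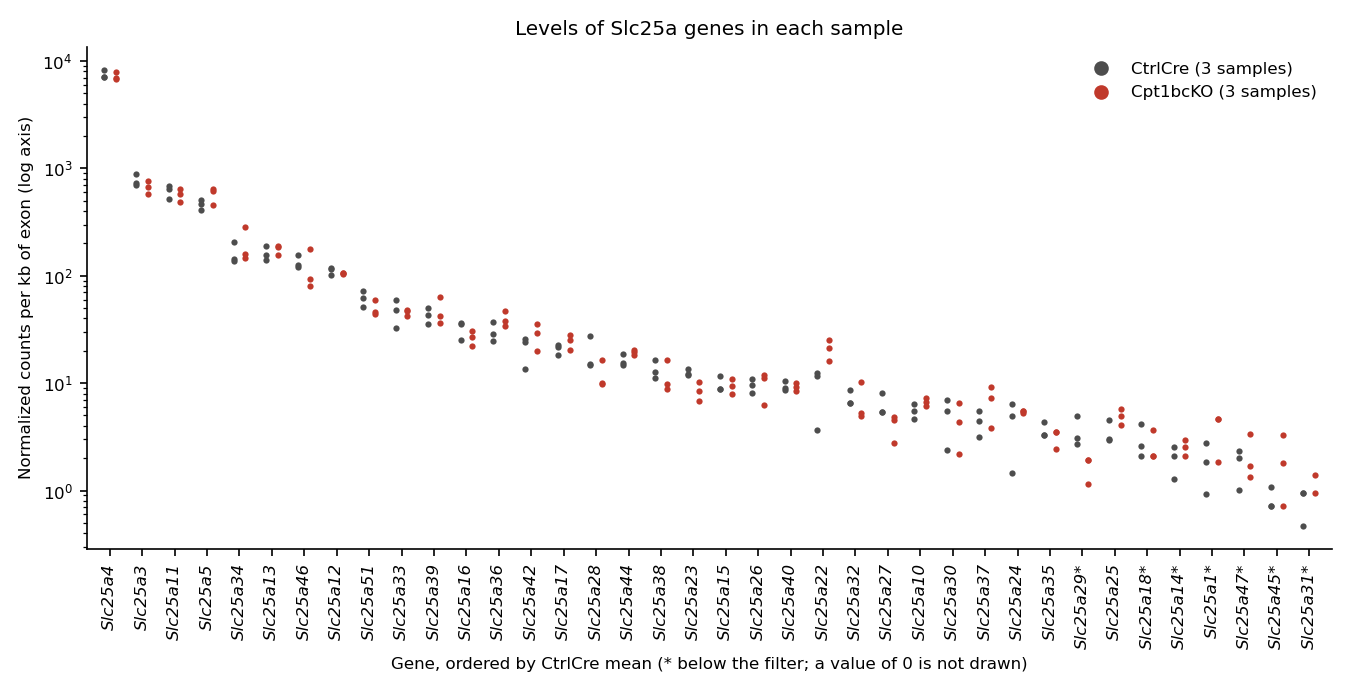
Normalized counts per kb of exon (log axis) of *Slc25a* genes in the 3 CtrlCre (grey) and 3 Cpt1bcKO (red) samples, each point 1 sample, ordered by the CtrlCre mean (a value of 0, in 1 sample of *Slc25a31*, is not drawn). *Slc25a4* stands above all others with 6786 to 8271 per kb, and the ranges of both genotypes overlap in all genes drawn but *Slc25a22*, *Slc25a23*, *Slc25a27* and *Slc25a29*.

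None of the carriers passed the test for a difference between the genotypes. Of the 39 genes, 32 passed the filter on low values (at least 10 normalized counts in at least 3 samples). In 15 of these the log2 fold change of Cpt1bcKO over CtrlCre was above 0 and in 17 below 0, with a median of −0.0087, against −0.0013 over all 11364 genes tested. The median size of the change, regardless of sign, was 0.23 for the carriers and 0.25 for all genes. An adjusted *P* value below 0.05 (limma on log2(value + 1), Benjamini–Hochberg adjustment over all genes tested) was reached by 0 of 32 carriers, against 1.57% of all genes. At an unadjusted *P* value below 0.05, 1 carrier was higher and 1 lower in Cpt1bcKO CMs, each 3.12% of those tested, against 6.66% higher and 7.22% lower among all genes. The genotypes did not overlap in 1 carrier that was higher (3.12%, against 9.13% of all genes) and in 2 that were lower (6.25%, against 9.60%). With all 6 samples, none of these carrier shares was above that of the whole table. For 22 of the 32 carriers, the 95% confidence interval of the change lay within a 2-fold difference in either direction.

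These counts rested on individual samples. Without Cpt1bcKO sample 3, the sample with the highest *mt-Rnr2* share, 4 carriers (*Slc25a5*, *Slc25a22*, *Slc25a36* and *Slc25a42*) were higher at an unadjusted *P* value below 0.05 and 0 were lower. This was 12.5% of the carriers, above the 5.39% of all genes that were higher in the same fit, whereas 6.56% of all genes were lower. Without Cpt1bcKO sample 1, 2 were higher (*Slc25a22* and *Slc25a37*) and 4 lower (*Slc25a23*, *Slc25a28*, *Slc25a46* and *Slc25a51*), that is 6.25% and 12.5% of the carriers, against 8.95% and 10.9% of all genes. Without CtrlCre sample 2, 2 carriers were higher and 0 lower (6.14% and 6.00% of all genes). Without CtrlCre sample 3, 1 was higher and 0 lower (5.82% and 5.44% of all genes), as without Cpt1bcKO sample 2 (3.94% and 4.88%). The split of 15 carriers above and 17 below 0 also moved, to 12 and 20 without Cpt1bcKO sample 1 and to 18 and 14 without CtrlCre sample 1. No carrier reached an adjusted *P* value below 0.05 in limma in any fit that left out a sample. Among all genes, 40 of 11020 (without Cpt1bcKO sample 2) to 305 of 11123 (without Cpt1bcKO sample 1) did. *Slc25a22* was among the higher carriers in each of these 6 fits.

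**Figure D2:**
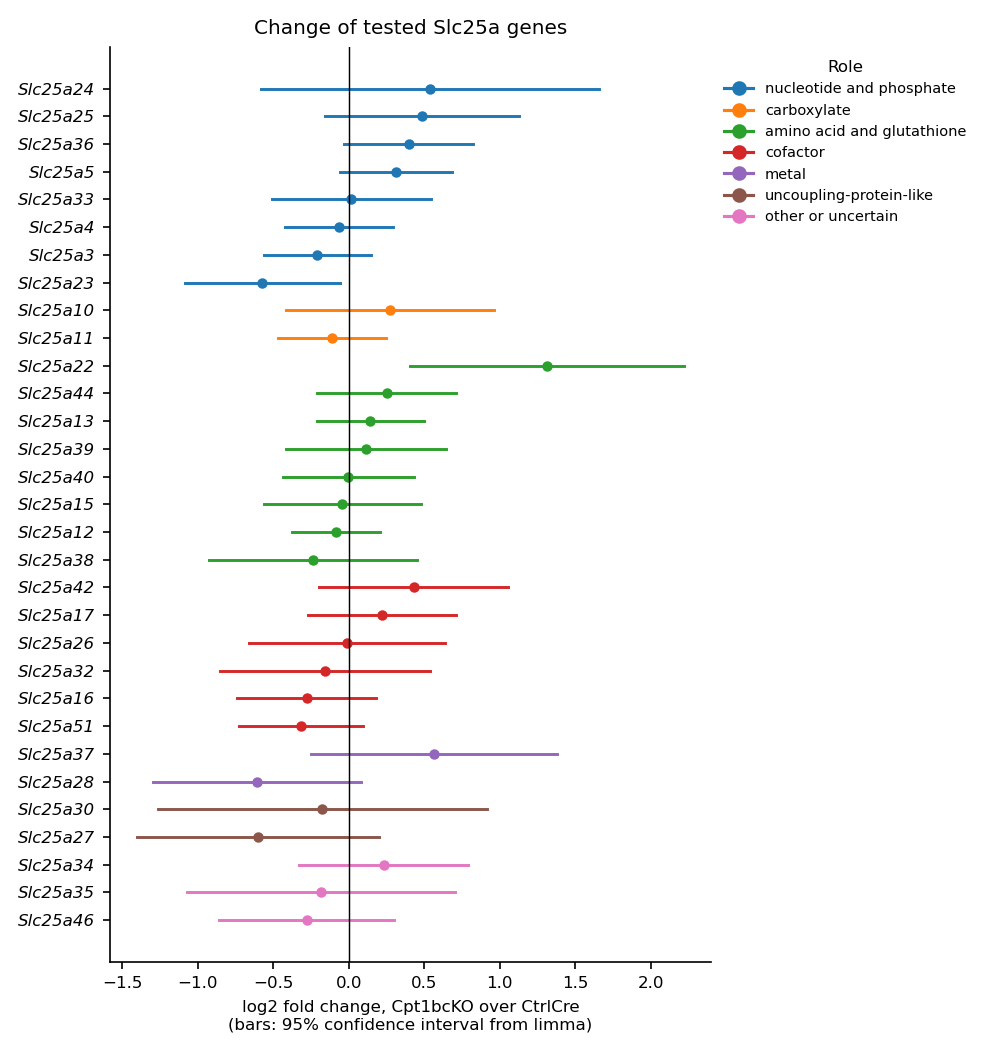
Log2 fold change (Cpt1bcKO over CtrlCre, points) with its 95% confidence interval from limma (bars) for tested *Slc25a* genes, grouped by role. The interval of *Slc25a22* (0.41 to 2.22) lies above 0, that of *Slc25a23* (−1.09 to −0.058) lies below 0, and the others drawn include 0.

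The carriers of nucleotides and phosphate supply the matrix with ADP and phosphate for ATP synthesis. Of the 9 listed, 8 were tested, 5 with a log2 fold change above and 3 below 0. *Slc25a4* (ENSMUSG00000031633, GRCm38 chr8:46206797-46211284, minus strand) had 19461, 16780 and 16740 normalized counts in CtrlCre and 18463, 16194 and 15968 in Cpt1bcKO samples. The genotypes overlapped, the log2 fold change was −0.065 (standard error 0.160), and its 95% confidence interval in limma corresponds to a ratio between 0.747 and 1.22. *Slc25a3* had 4923, 4073 and 3843 normalized counts in CtrlCre and 4221, 3712 and 3180 in Cpt1bcKO samples. Its genotypes also overlapped, with a log2 fold change of −0.21 (95% confidence interval −0.56 to 0.15).

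*Slc25a5* (ENSMUSG00000016319, chrX:36795651-36798807, plus strand) had 831, 759 and 670 normalized counts in CtrlCre and 1022, 1057 and 752 in Cpt1bcKO samples. Cpt1bcKO samples 1 and 2 were above all CtrlCre samples, whereas sample 3 lay within their range. This gave a log2 fold change of 0.31 with a standard error of 0.168 (unadjusted *P* = 0.0896 in limma, 0.439 after adjustment). *Slc25a36*, a carrier of pyrimidine nucleotides, had 276, 356 and 237 normalized counts in CtrlCre and 362, 449 and 327 in Cpt1bcKO samples. Sample 3 of Cpt1bcKO again overlapped the controls, and the log2 fold change of 0.40 had a standard error of 0.192 (adjusted *P* = 0.395 in limma). *Slc25a36* overlaps an annotated antisense gene with a mean of 175 normalized counts, and whether strand was used in counting is not given in the sources used here. *Slc25a33*, the other pyrimidine nucleotide carrier, had a log2 fold change of 0.017 (95% confidence interval −0.51 to 0.54).

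The calcium-regulated ATP-Mg/phosphate carriers adjust the adenine nucleotide pool of the matrix. *Slc25a23* (ENSMUSG00000046329, chr17:57043711-57059863, minus strand) had 63, 72 and 65 normalized counts in CtrlCre and 54, 45 and 36 in Cpt1bcKO samples, so that every Cpt1bcKO sample was below every CtrlCre sample. It was the only carrier that was lower at an unadjusted *P* value below 0.05, with a log2 fold change of −0.57 and a standard error of 0.232 (unadjusted *P* = 0.0325 in limma, 0.298 after adjustment). In the 6 fits that left out a sample, the unadjusted *P* value stayed below 0.05 in 2, those without CtrlCre sample 1 and without Cpt1bcKO sample 1. Its paralogues *Slc25a24* and *Slc25a25* had log2 fold changes of 0.54 and 0.48, with 95% confidence intervals of −0.58 to 1.66 and −0.16 to 1.13, and *Slc25a25* overlaps *Naif1*, which had a mean of 26.8 normalized counts.

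Carriers of carboxylates move intermediates of the Krebs cycle across the inner membrane. *Slc25a11* (ENSMUSG00000014606, chr11:70644196-70647058, minus strand) had 1456, 1359 and 1097 normalized counts in CtrlCre and 1361, 1222 and 1034 in Cpt1bcKO samples. The genotypes overlapped, with a log2 fold change of −0.11 (standard error 0.161) and a 95% confidence interval in limma that corresponds to a ratio between 0.722 and 1.19. It overlaps *Rnf167* on the opposite strand, which had a mean of 66.7 normalized counts. *Slc25a10*, the dicarboxylate carrier, was far lower, at 19, 22 and 16 normalized counts in CtrlCre and 21, 23 and 25 in Cpt1bcKO samples. Its log2 fold change was 0.27 (95% confidence interval −0.42 to 0.96). *Slc25a1*, the citrate carrier, fell below the filter with 6, 4 and 2 against 4, 10 and 10 normalized counts. *Slc25a21*, the oxodicarboxylate carrier, was not analysed here.

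Among the carriers of amino acids and glutathione, *Slc25a22* had the largest difference of all 32 tested carriers. It encodes a mitochondrial glutamate carrier (ENSMUSG00000019082, chr7:141429744-141437892, minus strand), which imports glutamate together with a proton. *Slc25a22* had 70, 74 and 22 normalized counts in CtrlCre and 150, 127 and 96 in Cpt1bcKO samples, so that every Cpt1bcKO sample was above every CtrlCre sample. CtrlCre sample 3, with 22 normalized counts or about 24 reads, lay far below the other 2 controls. The log2 fold change of 1.31 had a standard error of 0.408 (unadjusted *P* = 0.00892 in limma, 0.176 after adjustment) and corresponds to a 2.48-fold ratio with a 95% confidence interval from 1.32 to 4.65. In this fit the difference did not pass the adjustment for all genes tested. Without CtrlCre sample 3 it was smaller, with a log2 fold change of 0.76 (unadjusted *P* = 0.0142 in limma, 0.295 after adjustment). With each sample left out in turn, the adjusted *P* value in limma ranged from 0.178 to 0.489. Its paralogue *Slc25a18*, the other glutamate carrier, fell below the filter with 8, 4 and 5 against 4, 7 and 4 normalized counts, and it overlaps *Atp6v1e1*, a gene with a mean of 564.

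*Slc25a12* (aralar) and *Slc25a13* (citrin) exchange aspartate for glutamate and are part of the malate–aspartate shuttle, which brings reducing equivalents into mitochondria. *Slc25a12* had 861, 846 and 752 normalized counts in CtrlCre and 757, 787 and 774 in Cpt1bcKO samples, which lay within the control range. Its log2 fold change was −0.083, with the narrowest 95% confidence interval of the family (−0.37 to 0.21). *Slc25a13* had 592, 714 and 528 normalized counts in CtrlCre and 589, 718 and 708 in Cpt1bcKO samples, with a log2 fold change of 0.14 (95% confidence interval −0.21 to 0.50).

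*Slc25a44*, a carrier of branched-chain amino acids, had 67, 55 and 53 normalized counts in CtrlCre and 73, 65 and 70 in Cpt1bcKO samples. The genotypes overlapped in CtrlCre sample 1 and Cpt1bcKO sample 2, and the log2 fold change was 0.25 (95% confidence interval −0.21 to 0.71, adjusted *P* = 0.642 in limma). *Slc25a39* and *Slc25a40*, which are required for glutathione import, had log2 fold changes of 0.12 and −0.0047. *Slc25a39* had 139, 118 and 98 normalized counts in CtrlCre and 175, 117 and 100 in Cpt1bcKO samples, with sample 1 highest in both genotypes. *Slc25a40* had 87, 72 and 75 in CtrlCre and 78, 71 and 84 in Cpt1bcKO samples. *Slc25a15*, the ornithine carrier, and *Slc25a38*, a glycine carrier needed for haem synthesis, had log2 fold changes of −0.045 and −0.24. In total, 4 of the 8 tested carriers of this group were above and 4 below 0.

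**Figure D3:**
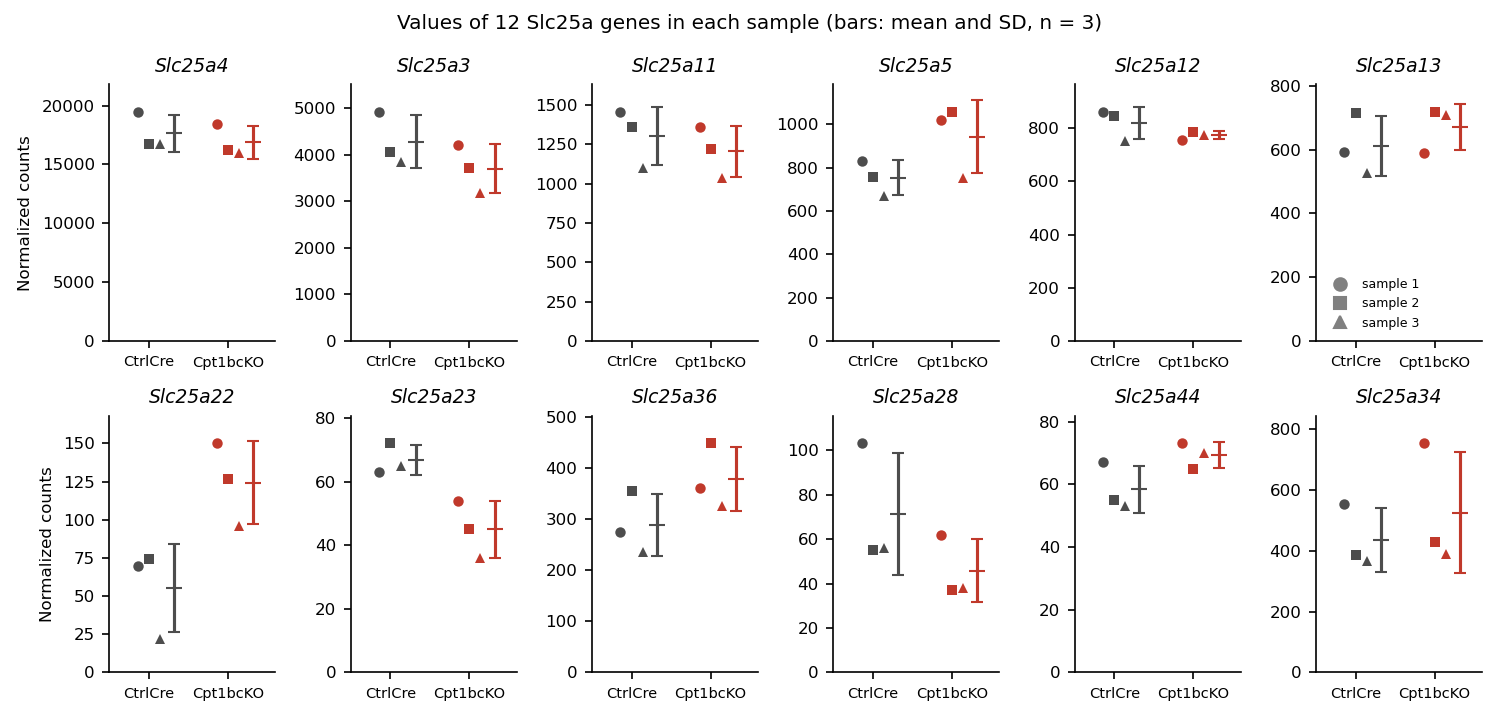
Normalized counts of 12 *Slc25a* genes in each sample (circles, squares and triangles for samples 1, 2 and 3), with the mean and SD (bars, n = 3) of CtrlCre (grey) and Cpt1bcKO (red). In *Slc25a22* (22 to 74 against 96 to 150) and *Slc25a23* (63 to 72 against 36 to 54) the genotypes do not overlap, and in the other 10 genes they do.

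All 7 carriers of cofactors were above the filter, 3 with a log2 fold change above and 4 below 0, and their adjusted *P* values in limma lay between 0.485 and 0.990. *Slc25a51*, which imports NAD+ into mitochondria, had 398, 344 and 281 normalized counts in CtrlCre and 327, 253 and 241 in Cpt1bcKO samples. Only Cpt1bcKO sample 1 overlapped the controls, and the log2 fold change was −0.32 (95% confidence interval −0.73 to 0.096). *Slc25a42*, a carrier of coenzyme A, had the most positive value of the group (0.43, 95% confidence interval −0.19 to 1.06). *Slc25a26*, which imports *S*-adenosyl methionine, the methyl donor for methylation inside mitochondria, had 53, 46 and 39 normalized counts in CtrlCre and 57, 30 and 54 in Cpt1bcKO samples. It had a log2 fold change of −0.013 (95% confidence interval −0.66 to 0.64), and overlaps *Lrig1*, a gene with a mean of 98.5 normalized counts. *Slc25a32*, linked to folate and FAD transport, had one of −0.16 and *Slc25a17*, a peroxisomal member of the family, one of 0.22. *Slc25a16* had 171, 173 and 121 normalized counts in CtrlCre and 128, 147 and 106 in Cpt1bcKO samples, with a log2 fold change of −0.28.

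The mitoferrins *Slc25a28* and *Slc25a37* supply iron for haem and iron–sulfur clusters. *Slc25a28* had 103, 55 and 56 normalized counts in CtrlCre and 62, 37 and 38 in Cpt1bcKO samples, with sample 1 highest in both genotypes. Cpt1bcKO sample 1 was above 2 of the CtrlCre samples, and Cpt1bcKO samples 2 and 3 were below all of them. Its log2 fold change was −0.61 (95% confidence interval −1.30 to 0.080). *Slc25a37* had 33, 27 and 19 normalized counts in CtrlCre and 23, 44 and 56 in Cpt1bcKO samples. Cpt1bcKO samples 2 and 3 were above all controls, sample 1 was within their range, and the log2 fold change was 0.56 (95% confidence interval −0.25 to 1.38). With each sample left out in turn, the change ranged from −0.85 to −0.32 for *Slc25a28* and from 0.30 to 0.92 for *Slc25a37*, both being farthest from 0 without Cpt1bcKO sample 1. The mitoferrin encoded by *Slc25a37* is best known from erythroid cells. Only 2 of 5 erythroid markers were among the rows of the table, with sums of 1 to 20 normalized counts. The part of erythroid RNA in the values of *Slc25a37* was not tested.

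Of the carriers that resemble uncoupling proteins, *Slc25a27* had 21, 21 and 32 normalized counts in CtrlCre and 11, 19 and 18 in Cpt1bcKO samples. The genotypes did not overlap, although its log2 fold change of −0.60 had an interval from −1.40 to 0.20 in limma. *Slc25a30*, of the same subgroup, had 11, 32 and 25 against 30, 20 and 10 normalized counts, and *Slc25a35*, an orphan carrier, had 12, 16 and 12 against 9, 13 and 13. *Slc25a34*, an orphan carrier that was among the 5 highest of the family per kb, had 555, 386 and 366 normalized counts in CtrlCre and 753, 430 and 391 in Cpt1bcKO samples. *Slc25a46*, an outer membrane protein linked to mitochondrial dynamics, had 844, 659 and 684 in CtrlCre and 966, 505 and 436 in Cpt1bcKO samples. Both genes were highest in sample 1 of each genotype, the sample with *Xist*, and 11 of the 32 tested carriers had this pattern in all (34.4%, against 21.6% of all genes tested). In both genes the genotypes overlapped, with log2 fold changes of 0.23 for *Slc25a34* and −0.28 for *Slc25a46* and 95% confidence intervals of −0.33 to 0.79 and −0.86 to 0.30. The change of *Slc25a46* was −0.63 without Cpt1bcKO sample 1 (unadjusted *P* = 0.00321 in limma, 0.0727 after adjustment, 0.960 at most with another sample left out) and −0.053 without Cpt1bcKO sample 3. That of *Slc25a34* turned to −0.062 without Cpt1bcKO sample 1 and was 0.12 to 0.42 with another sample left out.

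The 7 carriers below the filter were *Slc25a1*, *Slc25a14*, *Slc25a18*, *Slc25a29*, *Slc25a31*, *Slc25a45* and *Slc25a47*, with values of 0 to 13 normalized counts, which rest on few reads each. *Slc25a29*, a carrier of basic amino acids, had 8, 7 and 13 normalized counts in CtrlCre and 5, 3 and 5 in Cpt1bcKO samples. The genotypes did not overlap in this gene, but it was not tested. *Slc25a31* had 0 to 3 normalized counts in all 6 samples.

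Ratios between related carriers depend little on how samples are scaled, and were taken after 1 was added to each normalized count. The *Slc25a5* to *Slc25a4* ratio, between both main ADP/ATP carriers, was 0.0428, 0.0453 and 0.0401 in CtrlCre and 0.0554, 0.0653 and 0.0472 in Cpt1bcKO samples. Every Cpt1bcKO sample was above every CtrlCre sample, with a difference of 0.38 on the log2 scale (exact permutation test, two-sided, *P* = 0.10, adjusted over 5 pairs 0.25). With 3 samples against 3, 0.10 is the smallest *P* value that this test can give. The *Slc25a22* to *Slc25a18* ratio also did not overlap, with 3.83 to 15.0 in CtrlCre and 16.0 to 30.2 in Cpt1bcKO samples (difference of 1.46, exact permutation *P* = 0.10, adjusted 0.25), but rested on 4 to 8 normalized counts of *Slc25a18*. Without CtrlCre sample 3 this difference was 0.95. The differences were 0.22 for *Slc25a13* over *Slc25a12* (exact permutation *P* = 0.20, adjusted 0.25), −1.17 for *Slc25a28* over *Slc25a37* (exact permutation *P* = 0.20, adjusted 0.25) and 0.12 for *Slc25a39* over *Slc25a40* (exact permutation *P* = 0.70, adjusted 0.70). In the mitoferrin pair, Cpt1bcKO samples 2 and 3 had ratios of 0.844 and 0.684, whereas Cpt1bcKO sample 1 (2.62) lay within the control range. The difference of this pair was −1.77 without Cpt1bcKO sample 1 and −0.80 without Cpt1bcKO sample 3.

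**Figure D4:**
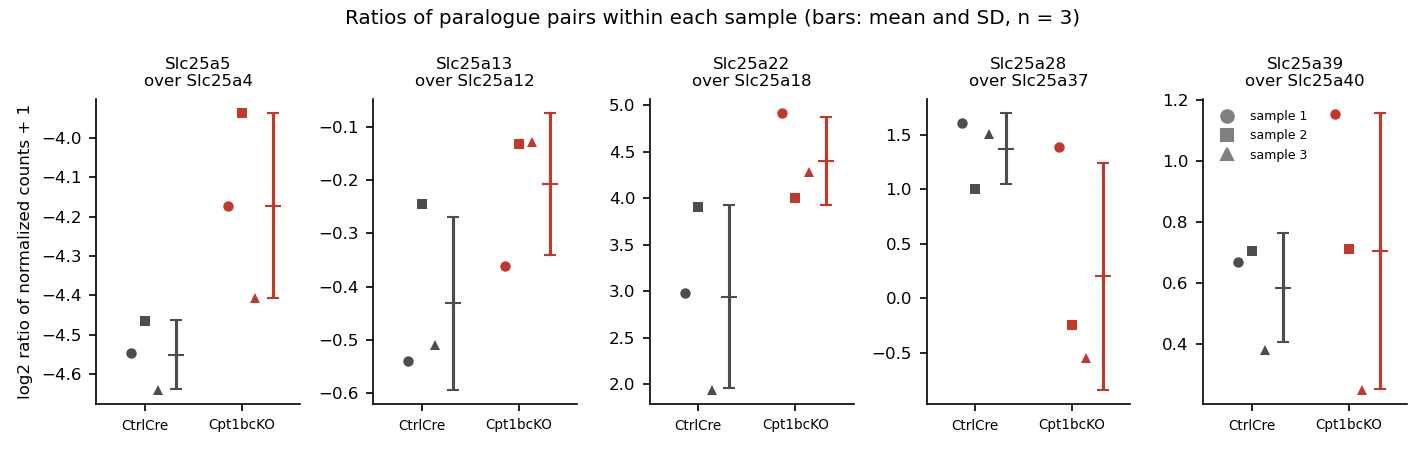
Log2 ratio of normalized counts (value + 1) for 5 pairs of related carriers within each sample, with the mean and SD (bars, n = 3) of CtrlCre (grey) and Cpt1bcKO (red). The genotypes do not overlap in the ratios of *Slc25a5* over *Slc25a4* and of *Slc25a22* over *Slc25a18*.

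A list of 13 further genes was compared alongside, made up of *Slc25a20*, uncoupling proteins, pyruvate carrier subunits, sideroflexins and the outer membrane relatives *Mtch1* and *Mtch2*. Of these, 12 were among the rows of the table and 11 were tested. In limma, 0 had an adjusted *P* value below 0.05, against 1.57% of all genes. At an unadjusted *P* value below 0.05, 0 were higher and 0 lower, against 6.66% and 7.22% of all genes. *Slc25a20* had 390, 313 and 243 normalized counts in CtrlCre and 574, 318 and 223 in Cpt1bcKO samples (log2 fold change 0.15, standard error 0.307). The mitochondrial pyruvate carrier subunits *Mpc1* and *Mpc2* had log2 fold changes of −0.0021 and −0.13. *Ucp3*, an uncoupling protein of muscle, varied most, with 450, 407 and 58 normalized counts in CtrlCre and 1136, 354 and 237 in Cpt1bcKO samples (log2 fold change 1.05, standard error 0.741, adjusted *P* = 0.573 in limma). *Sfxn4*, a sideroflexin, had 10, 12 and 12 normalized counts in CtrlCre and 14, 22 and 23 in Cpt1bcKO samples, which did not overlap (9.13% of all genes were higher in this way), and its log2 fold change was 0.72 (95% confidence interval −0.12 to 1.55). Like *Slc25a22*, *Ucp3* was lowest in CtrlCre sample 3 and highest in Cpt1bcKO sample 1. The 4 enzymes of the malate–aspartate shuttle, *Got1*, *Got2*, *Mdh1* and *Mdh2*, all had log2 fold changes below 0, from −0.52 for *Got2* to −0.21 for *Got1*. In limma, 0 of them had an unadjusted *P* value below 0.05 (adjusted *P* = 0.368 to 0.586), against 7.22% of all genes that were lower at this level. In *Got1* the genotypes did not overlap (9.60% of all genes were lower in this way), by a margin of 1 normalized count, with 1973, 1973 and 1680 in CtrlCre and 1679, 1575 and 1588 in Cpt1bcKO samples.

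The scaling of the samples shifted the log2 fold changes together, whereas ratios within a sample depend little on it. Scaling each sample to its total without rRNA and genes of the mitochondrial genome moved the median change over all genes to 0.11 and over the carriers to 0.10 on the log2 scale. With that scaling, 3 carriers (*Slc25a5*, *Slc25a22* and *Slc25a36*) were higher and 0 lower at an unadjusted *P* value below 0.05, that is 9.38% and 0% of the carriers, against 1221 higher and 505 lower among all genes, or 10.7% and 4.44% (757 and 821 with the deposited scaling), and 20 carriers were above and 12 below 0, *Slc25a4*, *Slc25a12* and *Slc25a40* being among those that changed sign. An adjusted *P* value below 0.05 was again reached by 0 carriers in limma, against 177 of all 11364 genes tested.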

How the data were processed

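RNA of isolated adult CMs was sequenced in 3 CtrlCre and 3 Cpt1bcKO samples. According to the paper's methods and the submitters' processing notes, the authors aligned reads to GRCm38 (mm10) with STAR 2.5.4b and counted those on exons with featureCounts 1.6.0, leaving out reads on several genes or regions. The authors divided the counts by DESeq2 size factors and rounded them, so the deposited score per gene is a whole-number normalized count. The authors' means, fold changes and *P* values in the table were not used.

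Since the values are normalized, limma 3.58.1 (R 4.3.3) was fitted to log2(value + 1), a scale that understates the fold changes of low genes, with a trended prior. Genes needed 3 or more samples with 10 or more normalized counts. The spacing of low values put 1 read at 0.682 to 1.29 normalized counts and gave estimates of 14.9 to 24.5 M reads on genes, with a clear optimum in 4 of the 6 samples. Exon lengths came from GENCODE vM21, in which 27 of the 39 carriers have the same start and end. The steps were tested on simulated data.

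Values in every sample are given for carriers with an unadjusted *P* value below 0.05 and for the 10 with the highest mean normalized count. They are also given for the carriers of carboxylates, of aspartate and glutamate and of branched-chain amino acids, and for 5 paralogue pairs. Other values were chosen after they were seen. Individual values of 1 carrier are not reported here and not drawn in the plots, although it was fitted and counted with the others. Members and lists were chosen with earlier results of these data known.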

Additional observations from a re-analysis of the deposited data

How the results depend on the processing

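Alternatives were a replicate block, pseudocounts of 0.5 and 5, other filters and scalings, other prior variances and leaving out each sample. With the replicate number as a block, 1 carrier (*Slc25a22*, log2 fold change 1.31, adjusted *P* = 0.0163 in limma, range over all alternatives 0.0163 to 0.489) had an adjusted *P* value below 0.05, and 4 were higher and 3 lower at an unadjusted one (12.5% and 9.38% of the carriers, against 9.44% and 11.3% of all genes). The numbers do not establish pairs, since no label says that a number marks a shared animal or day. Deviations of same-numbered samples correlated at 0.376, 0.255 and 0.0684 across genes, and CtrlCre sample 3 correlated best with Cpt1bcKO sample 2 (0.119). Deviations from a mean of 3 samples depend on each other, so these correlations cannot decide whether samples are paired. Over all genes, 178 adjusted calls became 603 with the block and 41 with 1 prior variance for all genes, and 40 to 305 with a sample left out. Scaling to the total outside rRNA and the mitochondrial genome gave 3 higher and 0 lower carriers (9.38% and 0%, against 10.7% and 4.44% of all genes), moved the split above and below 0 from 15 and 17 to 20 and 12, and, among the carriers chosen for full values, reversed *Slc25a4* (0.047), *Slc25a12* (0.029) and *Slc25a40* (0.11), and the median of ratios reversed *Slc25a40* (0.0017). With a sample left out, 1 to 4 carriers were higher and 0 to 4 lower, and log2 fold changes ranged from −0.13 to 0.0067 (*Slc25a4*), −0.062 to 0.42 (*Slc25a34*), −0.11 to 0.29 (*Slc25a39*) and −0.062 to 0.075 (*Slc25a40*). The *Slc25a39* over *Slc25a40* difference ranged from −0.10 to 0.35. The cause of these shifts was not tested. The median log2 fold change of the carriers lay between −0.074 and 0.10, with its sign turned without CtrlCre sample 1 (0.077), Cpt1bcKO sample 2 (0.064) or sample 3 (0.051) and with the total scaling (0.10), always by less than the SD between samples (0.126). Of 395 alternative values, 370, these medians included, were classed as the same. Counts had to stay within 1.5 times, and medians had to move by less than that SD. Log2 fold changes and ratios had to keep their direction and, where tested, their side of the threshold. Of the others, 13 were classed as moved, 11 as reversed and 1 as stronger. The share classed as the same is no measure of stability. The block, the filters and the prior variances leave the log2 fold change of a gene as it is, so that only its side of the threshold could change. For the ratios, the block was entered as the same without a new calculation.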
